A study of Mus musculus with 24 samples.

Results

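The 26S proteasome is encoded by a set of genes whose transcripts are described here across 8 conditions of a mouse pancreatic cancer cell line. Members were the protein-coding genes named Psma, Psmb, Psmc or Psmd with a number, without the immunoproteasome, thymus and testis subunits Psmb8, Psmb9, Psmb10, Psmb11 and Psma8. They also had to reach an FPKM (a read level per kilobase of gene length and sequencing depth) of at least 1 in at least 3 libraries. These conditions left 34 genes of 54532 in the table, and 34 of 34 reached that level in all 24 libraries, so the threshold removed none. They comprise 7 alpha ring and 7 beta ring subunits of the core particle, 6 ATPases and 11 non-ATPase subunits of the cap, and 3 base assembly chaperones that the naming rule also takes in. The member of lowest level was Psmd9, with a lowest FPKM of 2.66. Of the 5 genes left out by name, Psmb10 reached an FPKM of 6.49, Psmb11 reached 0.0321, and Psmb8, Psmb9 and Psma8 were listed at 0 in every library.

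The proteasome degrades proteins tagged with ubiquitin. Its core is a barrel of stacked rings: the outer alpha rings form the gate, and the inner beta rings carry the proteolytic sites. Caps on the ends of the barrel recognise the ubiquitin chain, cut it off, and use a ring of ATPases to unfold the substrate and thread it into the core. The transcription factor NFE2L1 is known to raise many of these genes together when proteasome activity is insufficient, by binding antioxidant response elements in their promoters.

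RNA sequencing was done on HY19636, which the labels give as a pancreatic ductal adenocarcinoma (PDAC) line, in 8 groups of 3 libraries. Cells were knockout (KO) or wild type (WT) for Phgdh, whose enzyme starts the making of serine from a glycolysis product. They were grown in medium free of serine and glycine (SG-free) or containing both (SG), and with hepatocytes (coculture) or without them (monoculture). In order, the groups are KO coculture, KO monoculture, WT coculture and WT monoculture, each SG-free and with SG. No source used here says which part of Phgdh was edited, whether the KO cells are 1 clone, or how cancer cells were parted from hepatocytes. Replicates carry numbers but no statement that they were separate cultures, so the tests speak of library-to-library spread, possibly technical.

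Libraries held 15740081 to 23479425 reads on genes, and a member never had fewer than 226 reads in a library. Phgdh, which checks the labels, had 372, 548 and 529 FPKM in KO SG monocultures, against 934, 929 and 903 in WT SG monocultures. In SG cocultures it had 885, 869 and 868 FPKM in KO and 1331, 1236 and 1333 in WT cells. In SG-free cocultures it had 817, 606 and 726 FPKM in KO and 1405, 1278 and 1249 in WT cells. KO libraries lay below WT libraries in each of these conditions. In SG-free monocultures Phgdh had 616, 732 and 737 FPKM in KO and 789, 818 and 794 in WT cells, also without overlap, but the log2 change of −0.21 ± 0.12 (SE) did not pass the test (limma adjusted p = 0.115). Summed FPKM of 12 hepatocyte markers was at most 1.05 in any library, and 0 of the 12 reached a mean of 1 in any group. Summed FPKM of 7 ductal and epithelial markers was 4397 to 4598 in KO SG-free monocultures, 3503 to 4138 in KO cocultures, 1620 to 1858 in KO SG monocultures, 2231 to 2394 in WT cocultures and 1125 to 1197 in WT monocultures. Their part in the values below was not tested. Summed FPKM was at most 9.73 for macrophage, 1.52 for endothelial and 0.0855 for fibroblast markers in any library. Replicate 1 of the KO SG monocultures stood apart from the other 2 libraries (chi-square per degree of freedom 65.7 and 53.0, against 4.45 between those). Replicate 1 of the KO SG-free monocultures did so less (18.2 and 14.1, against 3.21), and replicates 1 and 2 of the KO SG-free cocultures differed by 41.1.

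Promoters of 5 members are printed because these genes span the range of responses described below: the risers Psmc2, Psmb3 and Psmb6, the catalytic subunit Psmb5 that rose little, and Psma5, which fell. Each window is the 250 bases before the RefSeq start on the gene's own strand (GRCm38.p6). Capitals mark the core of the antioxidant response element, TGACNNNGC on either strand, where N is any base.
Psmc2 (chr5:21785025-21785274, plus strand): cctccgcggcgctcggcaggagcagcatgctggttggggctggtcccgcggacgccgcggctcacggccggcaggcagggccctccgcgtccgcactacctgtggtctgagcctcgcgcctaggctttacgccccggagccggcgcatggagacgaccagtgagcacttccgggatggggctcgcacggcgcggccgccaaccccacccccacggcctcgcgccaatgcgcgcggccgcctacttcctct
Psmb3 (chr11:97703184-97703433, plus strand): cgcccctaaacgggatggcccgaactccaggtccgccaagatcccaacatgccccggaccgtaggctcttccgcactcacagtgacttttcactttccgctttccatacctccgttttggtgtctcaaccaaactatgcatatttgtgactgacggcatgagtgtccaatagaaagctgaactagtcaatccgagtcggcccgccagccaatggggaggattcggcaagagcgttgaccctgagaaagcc
Psmb6 (chr11:70525107-70525356, plus strand): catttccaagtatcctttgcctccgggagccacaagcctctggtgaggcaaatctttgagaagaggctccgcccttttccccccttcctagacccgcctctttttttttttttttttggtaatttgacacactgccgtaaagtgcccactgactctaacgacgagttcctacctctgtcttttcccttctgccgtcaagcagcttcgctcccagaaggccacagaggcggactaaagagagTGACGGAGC
Psmb5 (chr14:54617996-54618245, minus strand): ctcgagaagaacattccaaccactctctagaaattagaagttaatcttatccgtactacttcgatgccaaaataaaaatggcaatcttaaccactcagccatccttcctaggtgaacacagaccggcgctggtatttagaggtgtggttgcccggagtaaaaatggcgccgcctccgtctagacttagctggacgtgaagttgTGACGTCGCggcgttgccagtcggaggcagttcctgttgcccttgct
Psma5 (chr3:108256676-108256925, plus strand): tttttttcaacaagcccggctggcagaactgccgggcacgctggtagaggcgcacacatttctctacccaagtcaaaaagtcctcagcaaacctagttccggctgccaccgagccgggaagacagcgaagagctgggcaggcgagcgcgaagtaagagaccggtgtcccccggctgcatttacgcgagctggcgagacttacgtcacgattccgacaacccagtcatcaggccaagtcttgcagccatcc
Windows were at hand for 28 of the 34 members. For Psmd9 the RefSeq start lies inside the deposited gene span, 58777 bases from its first base. The element's core lay in the windows of 5 of these (17.9%), Psmb5, Psmb6, Psmc6, Psmd9 and Psmd12, and in those of 11.5% of the 27025 genes in the same table. A CCAAT box (CCAAT on either strand) was found for 11 members (39.3%) and for 37.5% of genes. A second RefSeq start of Psmc2, not printed, also held no match. The 5 genes with a match had a median log2 change of 1.10 on withdrawal in KO monocultures, with a range of 0.38 to 1.32. That median is the value of Psmd9 itself, while Psmb5, Psmc6, Psmd12 and Psmb6 had 0.38, 0.58, 1.12 and 1.32. The 23 genes without a match had a median of 0.66, with a range of −0.42 to 2.01. The difference was not tested. The gene with the largest rise, Psmc2, was among those without a match. A match is a description of letters and not evidence of binding.

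Together, transcripts of the proteasome were far more abundant in KO SG-free monocultures than in any other group. The FPKM of all 34 members summed to 2677 ± 21.9 (SD, n = 3 here and below) in KO SG-free monocultures, against 1566 ± 27.2 in KO SG monocultures. The sum was 1479.7 ± 37.8 in WT SG-free and 1622 ± 17.7 in WT SG monocultures. In KO cocultures it was 1518.5 ± 33.0 SG-free and 1439 ± 12.1 with SG, and in WT cocultures 1515 ± 45.2 SG-free and 1457 ± 12.2 with SG. The lowest of the KO SG-free monocultures summed to 2655, and the highest of all other libraries to 1639.7. Members took 0.725% ± 0.0039 of reads in KO SG-free monocultures, against 0.372% to 0.448% on average in the other 7 groups. For 28 of the 34 members, the 3 highest of 24 libraries were those of this group, as they were for 23.5% of all tested genes, and the exceptions were Psma5, Psmb1, Psmb5, Psmd8, Psmd5 and Psmd10. In bulk samples a different mix of cells and a different amount of RNA per cell cannot be told apart.

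**Figure D1:**
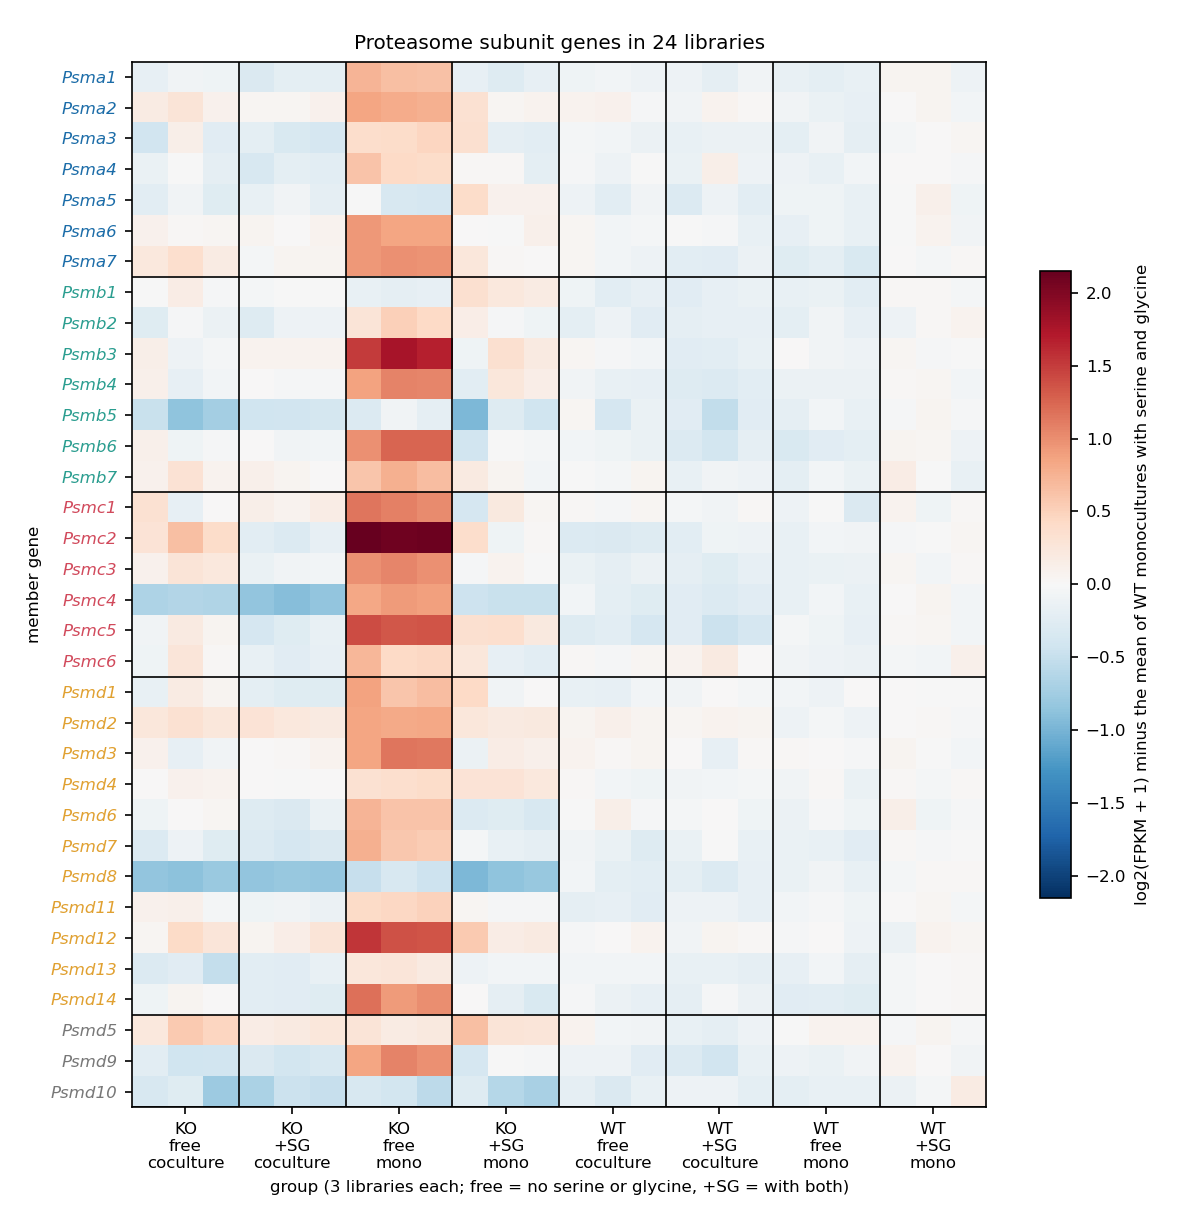
Heat map of 34 proteasome genes (rows, coloured by class) in 24 libraries (columns, 3 per group). Colour is log2(FPKM + 1) minus the gene's mean in WT SG monocultures; the 3 columns of KO SG-free monocultures are raised in most rows, while Psmd8 is lowered in every KO column.

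Summed cap genes gained more than summed core genes in this group, while the cap's non-ATPases gained about as much as the core. These differences were not tested. Core genes summed to 1169.8 ± 32.4 FPKM in KO SG-free against 744.8 ± 13.1 in KO SG monocultures, a ratio of 1.57. Cap genes summed to 1475 ± 29.2 against 793 ± 18.4, a ratio of 1.86. Within the cap, the 6 ATPases had the higher ratio, with 695 ± 16.3 FPKM SG-free and 298 ± 9.39 with SG, a ratio of 2.33. The cap's non-ATPases had a ratio of 1.575, and within the core the alpha ring had 1.423 and the beta ring 1.696. Between KO and WT SG-free monocultures the ratios were 1.754 for the core, 2.529 for the ATPases and 1.529 for the non-ATPases. Mean FPKM per core gene over mean FPKM per cap gene was 0.964 ± 0.043 in KO SG-free monocultures, the lowest of the 8 groups, against 1.14 ± 0.028 in KO SG monocultures. The other 6 groups had 1.01 to 1.16. These are transcript levels per gene length, not amounts of particles.

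**Figure D2:**
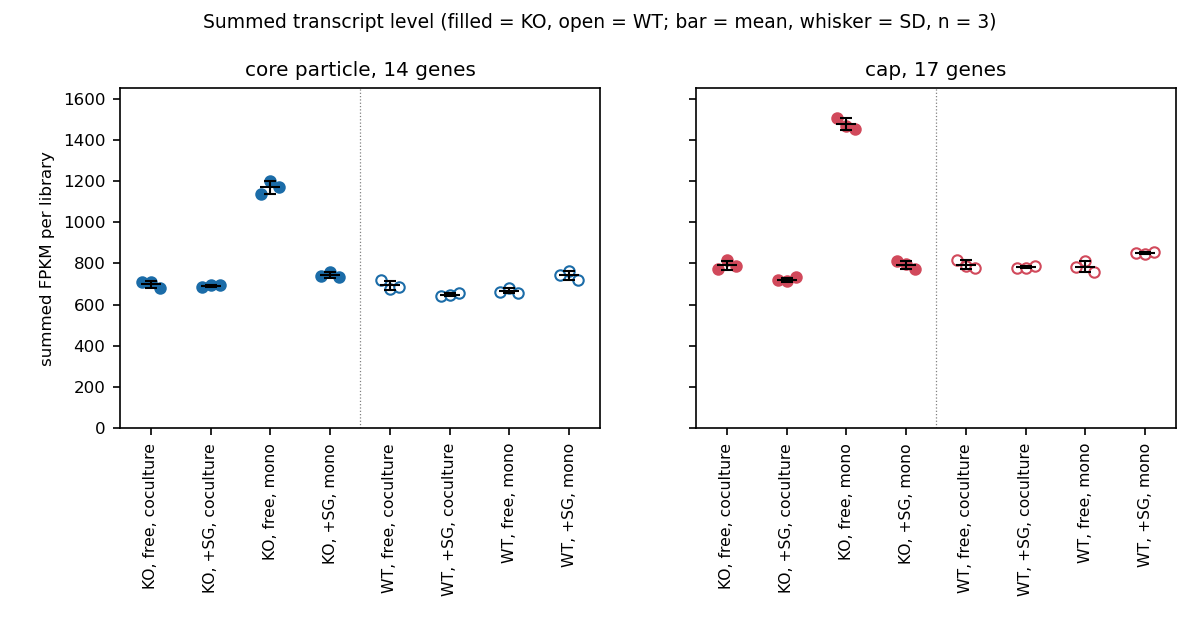
Summed FPKM (vertical axis, from 0) of 14 core and 17 cap genes in each library of 8 groups; points are libraries, bars are means and whiskers are SD (n = 3). KO SG-free monocultures stand at 1136 to 1200.4 for the core and 1451 to 1507 for the cap, above every other library.

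Withdrawal of serine and glycine from KO monocultures was tested with limma on log2(FPKM + 1) over 12061 genes, with a call at a Benjamini-Hochberg adjusted p under 0.05. Of 34 members, 29 rose and 2 fell, where 70.8% of all genes were called, 36.2% higher and 34.5% lower. The median log2 change of the members was 0.71, against 0.0042 over all genes, and 9 members rose by at least 1 on the log2 scale, as did 1099 of the 12061 genes. Among alpha ring genes 6 of 7 rose and Psma5 fell; among beta ring genes 6 of 7 rose and Psmb1 fell; 6 of 6 ATPases and 10 of 11 other cap genes rose; of the assembly chaperones 1 of 3 rose. Without replicate 1 of both KO monoculture groups, an alternative chosen after seeing the data, 29 rose and 2 fell. These were not all the same members, as Psmb5 lost its call there (0.22, adjusted p = 0.118).

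The ATPases form the ring that unfolds substrates. Psmc2 (ENSMUSG00000028932, GRCm38 chromosome 5, 21785283 to 21803787, plus strand) had 145, 138 and 140.2 FPKM in KO SG-free monocultures, against 41.4, 29.9 and 32.2 in KO SG monocultures. In cocultures it had 39.1, 50.4 and 41.8 FPKM in SG-free KO cells and 26.9, 25.7 and 27.9 in KO cells with SG. WT libraries held 25.3 to 32.8 FPKM across all 4 groups. SG-free KO libraries of either culture thus lay above all WT libraries, and the monocultures lay far above the cocultures. The withdrawal change in KO monocultures was 2.01 ± 0.092 (adjusted p = 2.6e-13). Psmc4 rose by 1.35 ± 0.050 (112.95 ± 3.76 FPKM SG-free, 43.7 ± 0.528 with SG), and Psmc1, Psmc5, Psmc3 and Psmc6 by 1.12, 1.06, 1.0 and 0.58.

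The catalytic beta subunits moved unequally. Psmb6 (ENSMUSG00000018286, chromosome 11, 70525367 to 70527858, plus strand), which carries the caspase-like site, had 109.9, 132 and 133 FPKM in KO SG-free monocultures, against 40.9, 54.7 and 53.6 in KO SG monocultures. Its change was 1.32 ± 0.094 (adjusted p = 2.18e-10). Psmb7 (ENSMUSG00000026750, chromosome 2, 38588036 to 38644087, minus strand), which carries the trypsin-like site, had 31.4, 35.6 and 33.0 FPKM in KO SG-free monocultures, against 23.6, 21.5 and 19.6 in KO SG monocultures. For Psmb6 and Psmb7 the libraries of the 2 media did not overlap, and the Psmb7 change was 0.61 ± 0.080 (adjusted p = 1.38e-06). Psmb5 (ENSMUSG00000022193, chromosome 14, 54614119 to 54618022, minus strand), which carries the chymotrypsin-like site, had 68.1, 79.4 and 72.6 FPKM in KO SG-free monocultures, against 42.0, 68.7 and 61.4 in KO SG monocultures. Its groups overlapped, and the change of 0.38 ± 0.14 (adjusted p = 0.0204) was not called without replicate 1 of the KO SG monocultures (0.17, adjusted p = 0.185) or without replicate 2 of the KO SG-free monocultures (0.32, adjusted p = 0.0782). It was also lost with quantile normalization (0.20, adjusted p = 0.179) and in a fit of only the groups compared (adjusted p = 0.127). In WT monocultures Psmb5 had 72.7, 80.3 and 75.0 FPKM SG-free and 82.2, 86.5 and 81.7 with SG, so KO SG-free libraries overlapped WT SG-free ones and lay below WT SG ones.

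Among noncatalytic ring genes the responses ran in both directions. Psmb3 (ENSMUSG00000069744, chromosome 11, 97703399 to 97713500, plus strand) had 106.7, 129 and 120.3 FPKM in KO SG-free monocultures, against 34.6, 47.4 and 42.5 in KO SG monocultures. The change of 1.5 ± 0.087 (adjusted p = 8.51e-12) was the largest of the core. Psma7 (ENSMUSG00000027566, chromosome 2, 180036374 to 180042433, minus strand), an alpha ring gene, had 66.0, 68.4 and 67.4 FPKM SG-free, against 40.4, 34.7 and 34.4 with SG, a change of 0.87 ± 0.063 (adjusted p = 2.65e-10). Psma5, of the alpha ring, fell instead, with 83.4, 65.7 and 64.9 FPKM SG-free against 110.2, 88.7 and 88.8 with SG (−0.42 ± 0.094, adjusted p = 0.000503). Psmb1, of the beta ring, fell likewise, with 44.5, 43.6 and 44.0 FPKM SG-free against 63.7, 58.8 and 56.4 with SG (−0.43 ± 0.053, adjusted p = 6.55e-07). Neither gene's libraries overlapped between the 2 media.

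The cap's other subunits recognise, deubiquitinate and position substrates. Psmd12 (ENSMUSG00000020720, chromosome 11, 107479484 to 107504362, plus strand), a lid subunit, had 95.1, 84.5 and 83.2 FPKM in KO SG-free monocultures, against 47.6, 35.7 and 36.5 in KO SG monocultures. Its change was 1.12 ± 0.10 (adjusted p = 5.63e-09). Psmd14, the lid deubiquitinase, rose by 1.21 ± 0.077 (adjusted p = 3.58e-11), the most of the non-ATPases. Psmd7, its inactive partner, rose by 0.76. Psmd4, a ubiquitin receptor, was the only one of the 17 cap genes not called (0.096 ± 0.045, adjusted p = 0.0634). Psmd2, the large base scaffold, had 145 ± 1.26 FPKM SG-free and 94.6 ± 1.16 with SG, a rise of 0.61.

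The 3 assembly chaperones, which help build the base and are not in the finished particle, separated. Psmd9 (ENSMUSG00000029440, chromosome 5, 123169413 to 123250131, plus strand) had 7.95, 9.39 and 8.81 FPKM in KO SG-free monocultures, against 2.85, 3.93 and 3.85 in KO SG monocultures, and rose by 1.10 ± 0.089 (adjusted p = 1.41e-09). Psmd5 (ENSMUSG00000026869, chromosome 2, 34849734 to 34874968, minus strand) had 12.5, 11.6 and 11.9 FPKM SG-free, against 16.5, 12.6 and 12.4 with SG, and was not called (−0.18 ± 0.088, adjusted p = 0.0829), but was called lower with quantile normalization (−0.25) and without replicate 2 or 3 of the KO SG monocultures (−0.23 and −0.24). Psmd10 (ENSMUSG00000031429, chromosome X, 140948429 to 140956728, minus strand) had 12.01, 11.6 and 10.2 FPKM SG-free, against 12.8, 9.88 and 9.27 with SG, and was not called either (0.087 ± 0.12, adjusted p = 0.53).

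**Figure D3:**
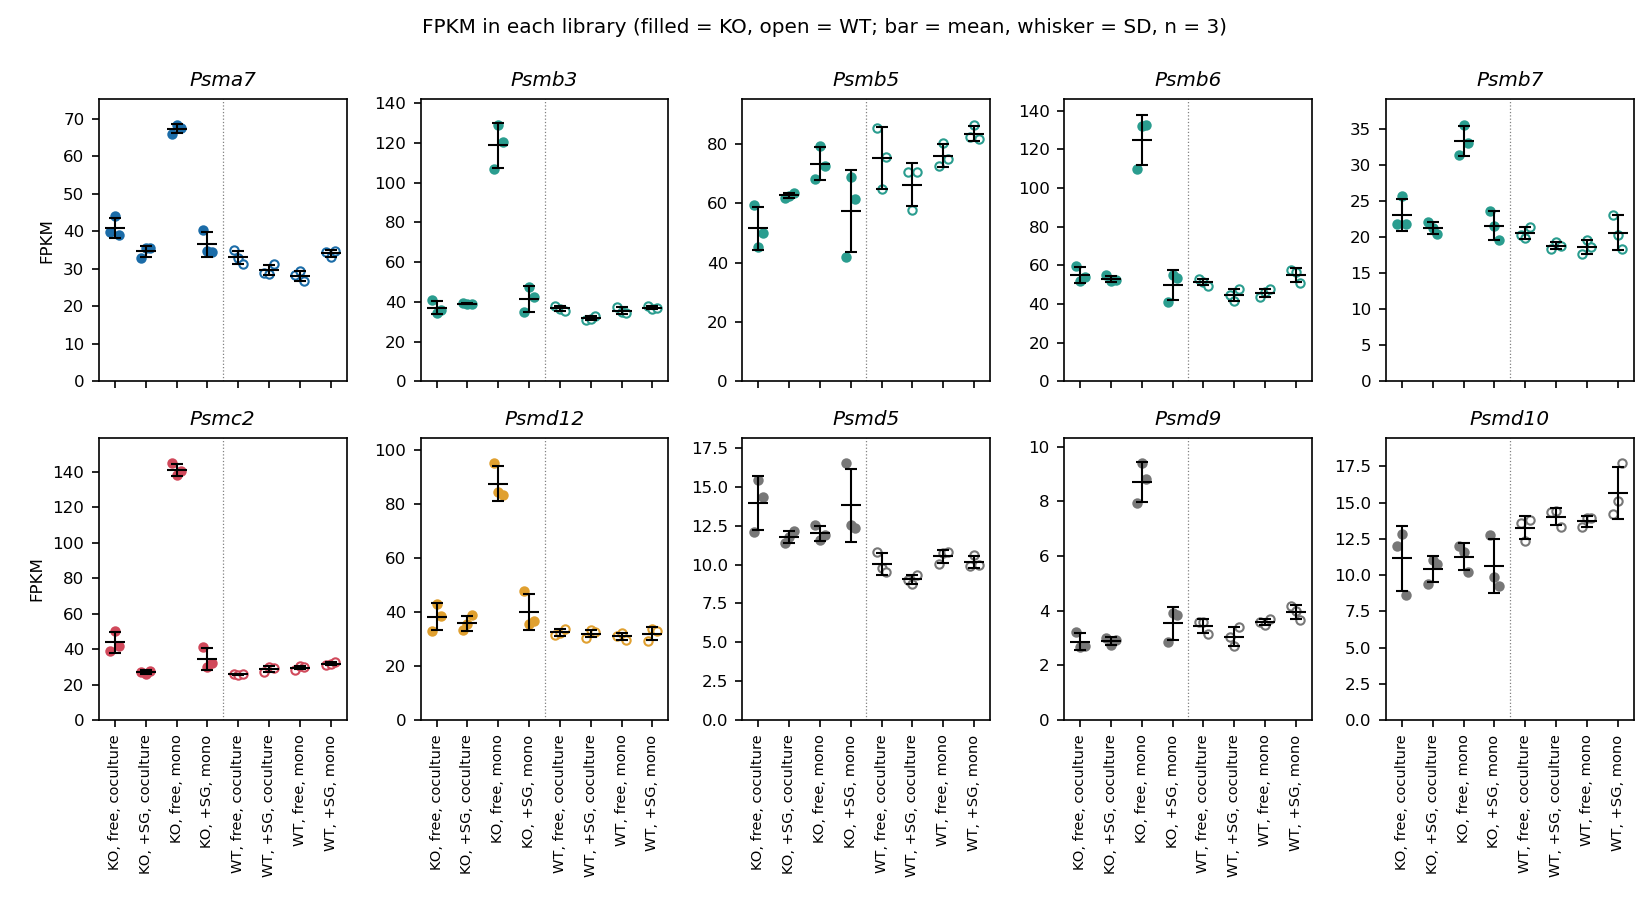
FPKM (vertical axes, from 0) of 10 members in each library of 8 groups; points are libraries, bars are means and whiskers are SD (n = 3). Psmc2, Psmb3 and Psmb6 exceed 100 FPKM only in KO SG-free monocultures, while Psmb5 and Psmd10 stay within the span of the other groups.

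Withdrawal gave 1 call in WT monocultures, 0 in WT cocultures and 9 in KO cocultures, and no member was called higher in WT cells. In WT monocultures 0 members rose and 1 fell, Psma7, with 28.2, 29.4 and 26.8 FPKM SG-free against 34.3, 33.1 and 34.8 with SG (−0.27 ± 0.063, adjusted p = 0.035), where 1.63% of genes were called, 1.37% higher and 0.257% lower. The members' median log2 change was −0.13, and 33 of 34 values were below 0, against −0.011 over all genes; 12 members, all lower, had an unadjusted p under 0.05, as did 11.9% of all genes, 7.05% higher and 4.81% lower. In 20 members all 3 SG-free libraries lay below the SG ones (14.0% of all genes). The count was 0 without replicate 1 or 2 of the SG or 1 or 3 of the SG-free WT monocultures. The Psma7 call was lost without replicate 1, 2 or 3 of the SG, or 1 or 3 of the SG-free, WT monocultures (adjusted p = 0.0755 to 0.200). In WT cocultures limma called 0 of 34 members, where 0.738% of genes were called, 0.439% higher and 0.298% lower. All 3 SG-free libraries lay above the SG ones in 8 members (10.3% of all genes) and below them in 2 (11.4%). At an unadjusted p under 0.05 there were 3 members, all higher, and 9.48% of all genes, 4.74% higher and 4.73% lower, and limma voom on the recovered reads also called 0.

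In KO cocultures 9 members rose on withdrawal and 0 fell, where 29.9% of genes were called, 15.5% higher and 14.4% lower. The median was 0.087, against −0.00066 over all genes, and in 13 members all 3 SG-free libraries lay above the SG ones (21.9% of all genes). Of the 6 ATPases, 4 rose: Psmc2 by 0.68 ± 0.092 (adjusted p = 2.36e-05), Psmc5 by 0.32, Psmc3 by 0.29 and Psmc4 by 0.23. Psmd1, Psmd6, Psmd11, Psmd14 and Psma7 rose by 0.15 to 0.27. The Psma7 call was lost without replicate 1 of the KO SG cocultures (adjusted p = 0.0517), without replicate 2 of the KO SG-free cocultures (0.0666) and with only the groups compared (0.062). Psmb3 and Psmb6, which were among the largest rises in monoculture, changed by −0.084 and 0.049 in coculture and were not called. This count depends on single libraries: without replicate 1 of the KO SG-free cocultures, 14 members were called. Leaving out each library in turn gave 6 to 14. Over the 34 members, the changes in KO monocultures and KO cocultures correlated weakly (Pearson's r = 0.355, Spearman's rho = 0.202); the 2 comparisons share no library, and members are not independent replicates.

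The difference between withdrawal effects was tested directly. Against WT monocultures, the KO effect in monoculture was higher for 30 members and lower for 1, Psmb1, where 61.2% of genes were called, 31.4% higher and 29.8% lower, and the median difference was 0.87 (0.0018 over all genes). Against KO monocultures, the effect in KO cocultures was lower for 26 members and higher for 3, Psma5, Psmb1 and Psmd5, where 57.7% of genes were called, 27.9% higher and 29.8% lower, with a median of −0.65. Psmc2 differed by 2.11 ± 0.13 between genotypes in monoculture and by −1.33 ± 0.13 between KO cocultures and KO monocultures. Between genotypes in coculture, 4 members differed, where 14.4% of genes were called, 8.06% higher and 6.38% lower: Psmc2 (0.83 ± 0.13), Psmc3 and Psmd11 higher, and Psmd13 lower. That count was 8 without replicate 1 of the KO SG-free cocultures, 1 without replicate 1 of the WT SG cocultures, and 2 without replicate 1 or 3 of the KO SG, 2 or 3 of the KO SG-free, 3 of the WT SG, or 1, 2 or 3 of the WT SG-free cocultures. Between WT cocultures and WT monocultures 1 member differed, Psma7 (0.42 ± 0.089), where 1.67% of genes were called, 0.423% higher and 1.24% lower. The count was 0 without replicate 1 or 2 of the WT SG cocultures, replicate 1 of the WT SG-free cocultures, or replicate 3 of either WT monoculture group.

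**Figure D4:**
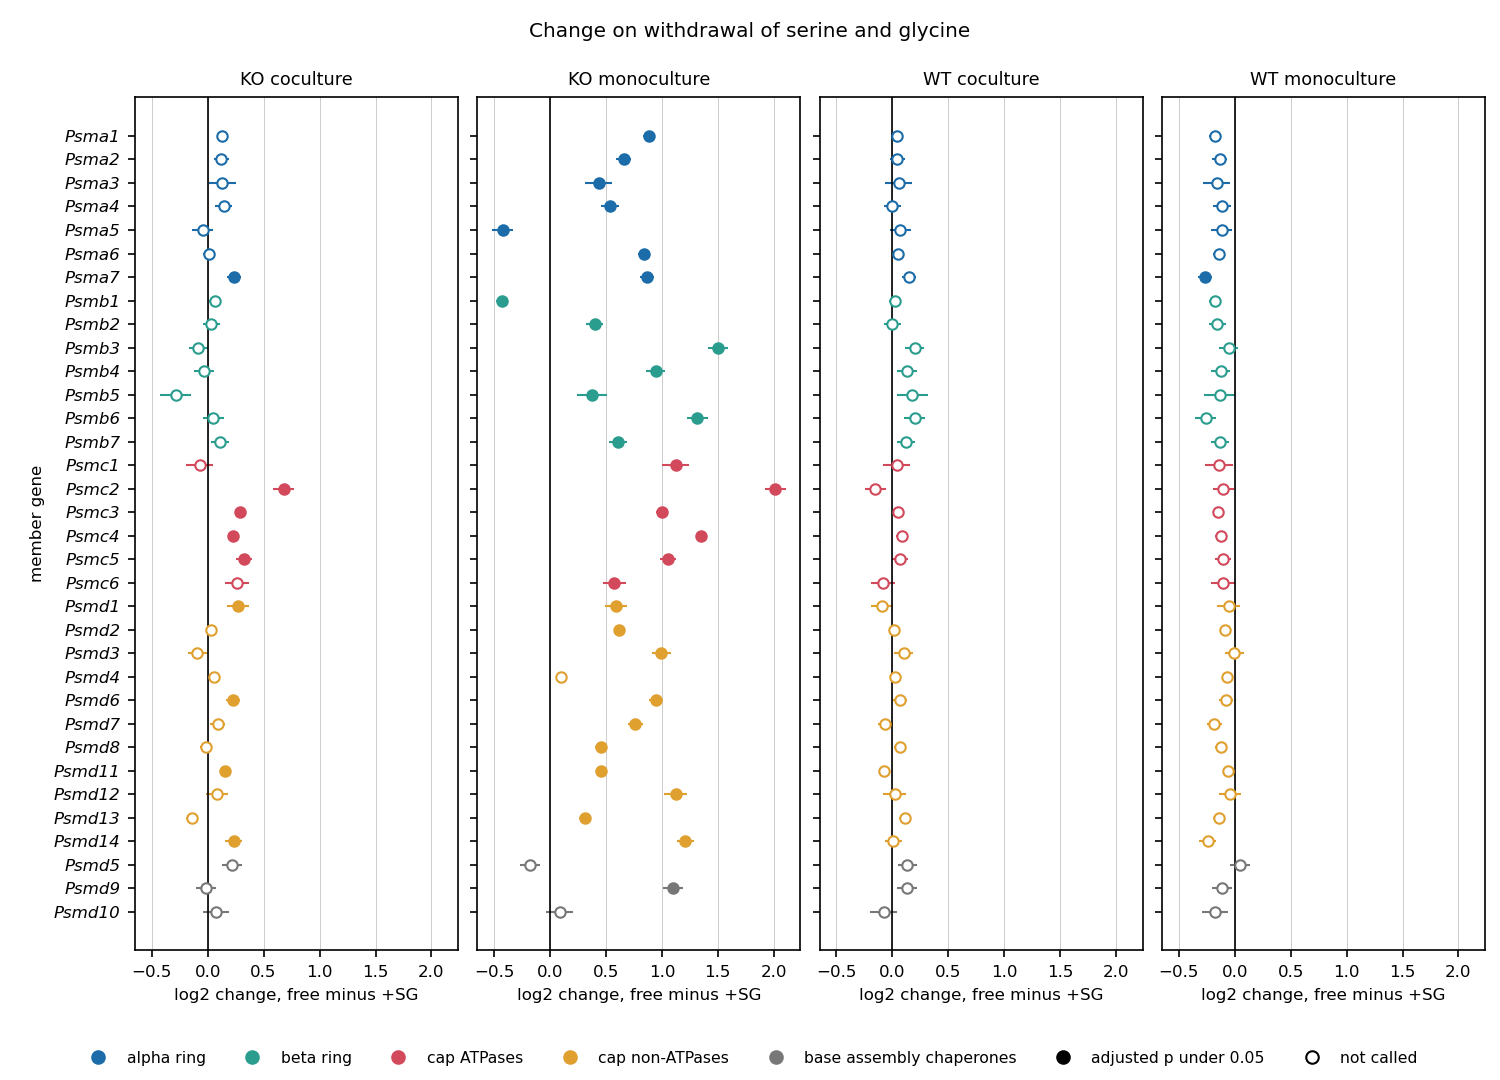
Log2 change of each member on serine and glycine withdrawal (horizontal axis, SG-free minus SG) with SE, in KO cocultures, KO monocultures, WT cocultures and WT monocultures. Filled points passed the test; 31 are filled in KO monocultures, 9 in KO cocultures, 0 in WT cocultures and 1 in WT monocultures.

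Genotype was compared under 4 conditions. In SG-free monocultures 28 members were higher in KO than in WT cells and 1 was lower, Psmd8, where 73.6% of genes were called, 37.4% higher and 36.3% lower. The median was 0.83, against 0.0014 over all genes, and the groups did not overlap for 29 members with KO above (39.8% of all genes) and 2 with KO below (38.8%). Psmc2 had 145, 138 and 140.2 FPKM in KO and 28.4, 30.4 and 29.9 in WT SG-free monocultures, a 4.77-fold difference of means (log2 change 2.22 ± 0.092, adjusted p = 4.49e-14). Psmb3 followed with 3.34-fold (1.71 ± 0.087) and Psmc5 with 1.47 ± 0.072 on the log2 scale. Psmb5 and Psmb1 differed by −0.052 ± 0.14 and 0.0052 ± 0.053 and were not called, nor were Psma5, Psmd5 or Psmd10. Psmd10 was called lower with quantile normalization (−0.34), median-of-ratios rescaling (−0.28), limma voom (−0.30), only the groups compared (−0.26) and replicate 1 of both KO monoculture groups left out (−0.31), and Psmb5 with quantile normalization (−0.30, adjusted p = 0.042). Psmd5 was called higher with only the groups compared (adjusted p = 0.0225). This comparison, the withdrawal effect in KO monocultures and the SG-free KO coculture effect share the 3 KO SG-free monoculture libraries, so they are not independent.

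In the other 3 conditions the median difference between genotypes was near 0, with calls in both directions. In SG monocultures 6 members were higher and 6 lower in KO cells (42.7% of genes called, 21.5% higher and 21.1% lower; median 0.0084), led by Psmd5 (0.40), Psmc5 (0.31) and Psmd12 (0.30) above and Psmd8 (−0.89), Psmb5 (−0.56) and Psmd10 (−0.53) below. The Psmd12 call was lost without replicate 1 of the KO SG monocultures (0.17, adjusted p = 0.138), without replicate 1 of the WT SG monocultures (0.24, adjusted p = 0.0985) and with only the groups compared (adjusted p = 0.134). With only the groups compared, Psmb5 (adjusted p = 0.0643) and Psmd5 (adjusted p = 0.0539) also lost theirs. In SG cocultures 7 were higher and 7 lower (43.9% called, 21.8% higher and 22.0% lower; median 0.046), led by Psmd5 (0.35), Psmb3 (0.29) and Psmb4 (0.25) above and Psmc4 (−0.62), Psmd8 (−0.60) and Psmd10 (−0.40) below, and 9 rather than 14 were called without replicate 1 or 2 of the KO or replicate 2 of the WT SG cocultures. There the Psmd10 call was lost without replicate 1 of the KO SG cocultures (adjusted p = 0.056) and the Psmb3 call with quantile normalization (0.20, adjusted p = 0.0509). In SG-free cocultures 8 were higher and 4 lower (53.6% called, 26.3% higher and 27.4% lower; median 0.063), led by Psmc2 (0.74), Psmd5 (0.43) and Psmc3 (0.35) above and Psmd8 (−0.68), Psmb5 (−0.54) and Psmc4 (−0.48) below. In these 3 comparisons the share of members called lay below the share of all genes.

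Psmd8 and Psmd2 were called between genotypes in the same direction in all 4 conditions. Psmd8, a lid subunit, was lower in KO cells in all 4 conditions. It had 131 ± 7.18 FPKM in KO and 163 ± 5.46 in WT SG-free monocultures, and 95.4 ± 5.38 in KO and 177 ± 4.96 in WT SG monocultures. It had 98.1 ± 2.86 FPKM in KO and 158 ± 10.2 in WT SG-free cocultures, and 98.9 ± 0.927 in KO and 151 ± 6.24 in WT SG cocultures. The log2 changes were −0.31, −0.89, −0.68 and −0.60, so the difference was narrowest in the SG-free monocultures, where Psmd8 rose on withdrawal in KO cells (0.46 ± 0.054). Psmd2 was the only member higher in KO cells in all 4 conditions, by 0.92 and 0.22 in SG-free and SG monocultures and 0.20 and 0.18 in SG-free and SG cocultures. Psmc4 changed side: it was lower in KO cells in 3 conditions (−0.47 in SG monocultures, −0.62 in SG cocultures and −0.48 in SG-free cocultures) and higher in SG-free monocultures (1.01 ± 0.050).

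**Figure D5:**
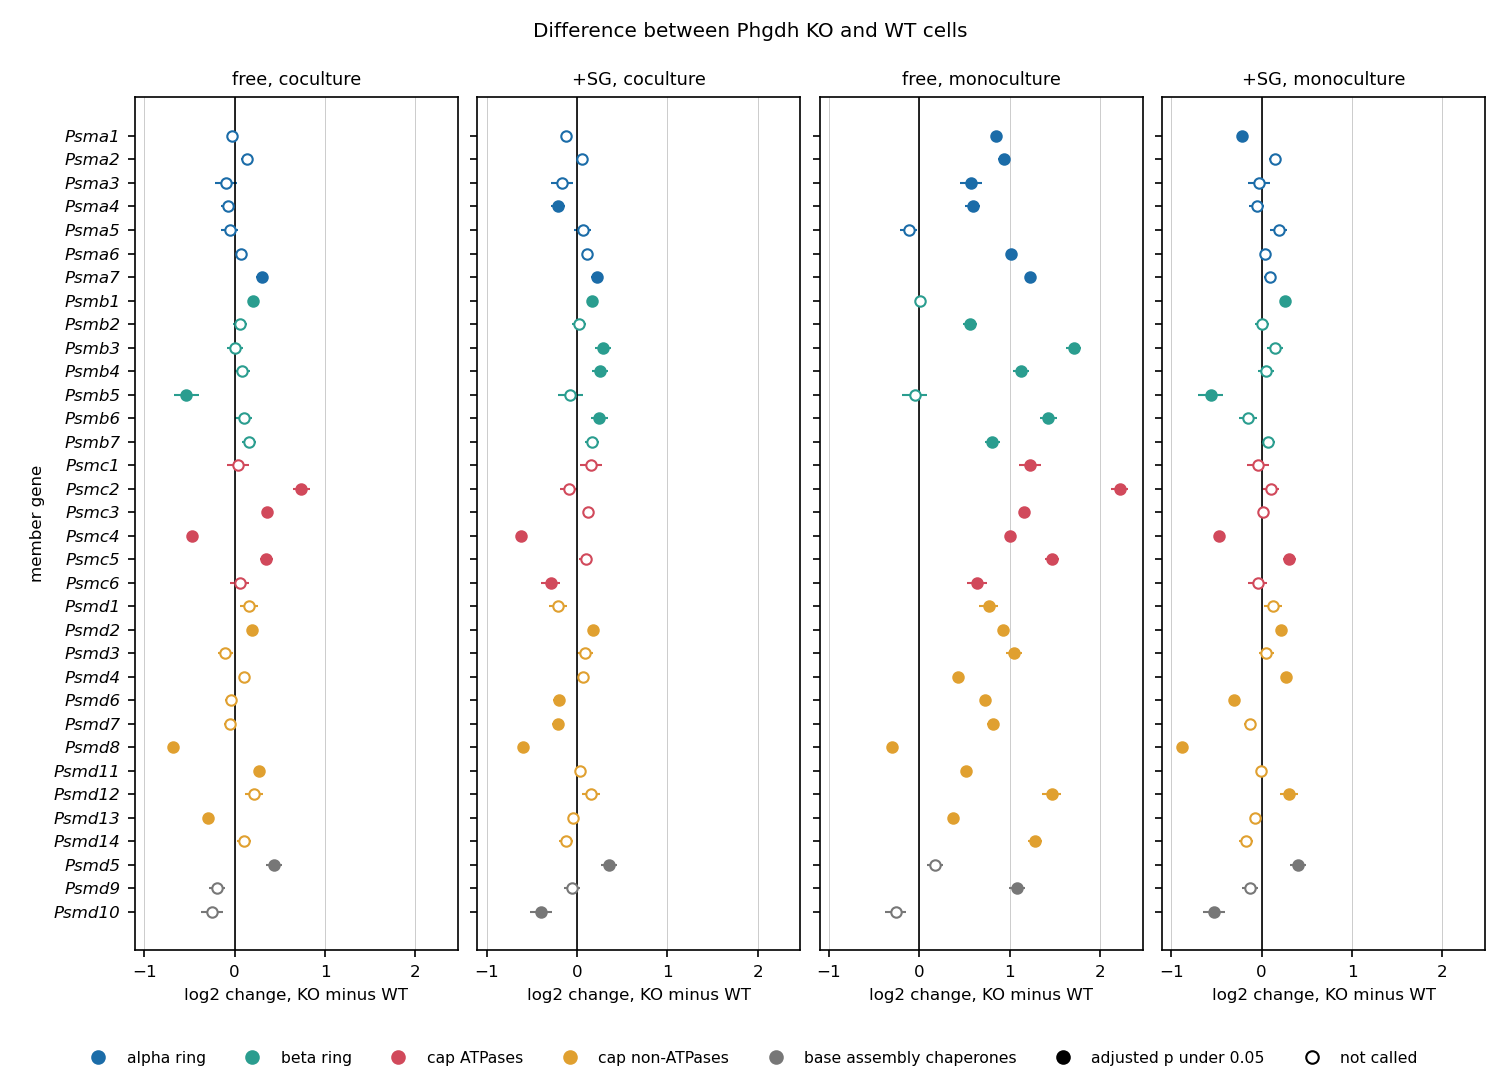
Log2 difference of each member between KO and WT cells (horizontal axis, KO minus WT) with SE, in SG-free coculture, SG coculture, SG-free monoculture and SG monoculture. Filled points passed the test; most lie near 0 outside the SG-free monocultures, and Psmd8 is below 0 in all 4 panels.

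Coculture lowered the members most in SG-free KO cells. There 30 fell and 1 rose, Psmb1, where 71.3% of genes were called, 35.0% higher and 36.3% lower, and the median was −0.67 (−0.0064 over all genes). Psmd5 was not called, but was called higher with quantile normalization (0.24), median-of-ratios rescaling (0.21) and limma voom (0.23). It was also called higher without replicate 1 of the KO SG-free cocultures (0.29) and with replicate 1 of both KO monoculture groups left out (0.22). Psmc2 and Psmb3 fell to 0.311 times their monoculture means, with 43.8 ± 5.91 against 141 ± 3.35 FPKM and 36.9 ± 3.32 against 119 ± 11.3 FPKM. Psmb6 had 59.5, 51.6 and 53.9 FPKM in SG-free KO cocultures, against 109.9, 132 and 133 in SG-free KO monocultures. Psmb5 had 59.3, 45.3 and 49.95 FPKM in those cocultures, against 68.1, 79.4 and 72.6 in the monocultures (−0.51 ± 0.14, adjusted p = 0.00281). The 17 cap genes all fell, as did 12 of the 14 core genes.

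Smaller falls were seen with SG. In KO cells with SG 9 members fell and 0 rose in coculture (40.0% of genes called, 20.1% higher and 19.9% lower; median −0.096), led by Psmc5 (−0.57 ± 0.072), Psmc4 (−0.41) and Psmd1 (−0.37). In WT cells with SG 11 fell and 0 rose (31.2% called, 16.3% higher and 14.9% lower; median −0.14), led by Psmc5 (−0.36), Psmb6 (−0.30) and Psmd9 (−0.29). The Psmb6 call was lost without replicate 1 or 2 of either WT SG group (adjusted p = 0.0514 to 0.0965), and the Psmd9 call without replicate 1 or 2 of the WT SG monocultures or 2 of the WT SG cocultures (adjusted p = 0.0508 to 0.0968). That WT count was 7 and 6 without replicates 1 and 2 of the SG monocultures, and 6 and 5 without replicates 1 and 2 of the SG cocultures. In SG-free WT cells 3 rose and 1 fell (28.1% called, 14.9% higher and 13.1% lower; median 0.035): Psma7, Psma2 and Psmd2 rose by 0.22, 0.18 and 0.16 and Psmd11 fell by 0.15 on the log2 scale. The Psma7 call was lost without replicate 3 of the SG-free WT monocultures (adjusted p = 0.0609), without replicate 1 of the SG-free WT cocultures (adjusted p = 0.0646) and with quantile normalization (adjusted p = 0.052). That count was 2 without any 1 library of the SG-free WT monocultures or without replicate 1 of the SG-free WT cocultures. Whether coculture acted differently in KO and WT cells with SG was tested as an interaction: 1 member was higher, Psmd8 (0.29 ± 0.077), and 1 lower, Psmd4 (−0.20 ± 0.063), where 10.4% of genes were called, 4.98% higher and 5.39% lower. The count was 0 without replicate 2 of the KO SG cocultures, 2 of the WT SG cocultures, or 2 or 3 of the WT SG monocultures. It was 1 without replicate 1 of the KO SG monocultures, 1 of the WT SG monocultures, or 1 or 3 of either SG coculture group.

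Genes that act with the proteasome were followed as lists, and their counts stand against 36.2% of all genes called higher and 34.5% lower on withdrawal in KO monocultures. Of the assembly chaperones outside the naming rule, Pomp, which matures the core, and Psmg1 to Psmg4, which build the alpha ring, 5 of 5 rose on withdrawal in KO monocultures. Pomp had 24.6, 23.5 and 23.6 FPKM in KO SG-free monocultures, against 14.1, 10.3 and 10.7 in KO SG monocultures (0.98 ± 0.099, adjusted p = 3.28e-08), and the list's median was 0.97. Of 7 proteasome-bound factors 6 rose, led by the deubiquitinase Uchl5 (1.86 ± 0.12) and the lid protein Sem1 (0.92 ± 0.064), and Txnl1 fell (−0.64 ± 0.059). The COP9 signalosome, which is built on the same plan as the lid and removes NEDD8 from cullins, had 8 of 9 genes higher, led by Gps1 (1.21 ± 0.077) and Cops6 (1.19 ± 0.15). The chaperonin TRiC, a folding machine, had 4 of 8 genes higher and 4 lower, with Cct3 at 0.96 ± 0.048 and Tcp1 at −0.71 ± 0.11.

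Of 5 activator and inhibitor genes 2 rose and 2 fell. Psme1, a subunit of the interferon-inducible activator, had 1.31, 2.23 and 2.30 FPKM in KO SG-free monocultures, against 21.5, 21.1 and 18.8 in KO SG monocultures, and fell by 2.88 on the log2 scale (SE 0.11, adjusted p = 1.89e-14). Psme3, the nuclear activator, rose by 0.80 ± 0.068 and the inhibitor Psmf1 by 0.73 ± 0.076, while Psme4 fell by 0.29 on the log2 scale (SE 0.095). Psme2, the partner of Psme1, had 8.61, 12.2 and 6.40 FPKM in KO SG-free monocultures, against 4.51, 9.75 and 9.81 in KO SG monocultures, and was not called (0.18 ± 0.28, adjusted p = 0.564). The immunoproteasome subunit Psmb10 fell by 1.09 on the log2 scale (SE 0.13). Of 8 genes for NFE2L1 and its processing 4 rose and 4 fell, where 36.2% of all genes were called higher and 34.5% lower. Ngly1, which removes glycans from NFE2L1, rose by 1.60 ± 0.087, and Vcp, which extracts it from the membrane, rose by 0.66 ± 0.049. Sel1l and Syvn1, which form the ubiquitin ligase of the endoplasmic reticulum, fell. Sel1l had 40.3, 38.4 and 37.7 FPKM in KO SG-free monocultures, against 107.2, 85.5 and 88.7 in KO SG monocultures (−1.25 ± 0.071). Syvn1 had 21.6, 27.3 and 25.2 FPKM in KO SG-free monocultures, against 36.6, 52.5 and 55.7 in KO SG monocultures (−0.92 ± 0.11). Nfe2l1 itself had 74.4, 76.5 and 78.7 FPKM in KO SG-free monocultures, against 71.2, 115 and 112 in KO SG monocultures (−0.34 ± 0.13, adjusted p = 0.0276). Its groups overlapped at replicate 1 of the KO SG monocultures.

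Some counts could be shared with other genes. In the deposited annotation 18 members overlapped no other gene and 6 (Psma2, Psmb7, Psmc3, Psmc5, Psmd13 and Psmd14) overlapped a tested gene, and no source used here says whether counting used strand. The 4 annotated pseudogenes of members reached at most 0.19 FPKM and 9 reads over all libraries.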

How the data were processed

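The authors deposited 1 table of FPKM for 54532 genes in 24 libraries of the HY19636 line, with gene positions and lengths per the file headers, and the submitters' processing notes name HISAT2 and GRCm38 (mm10), the build of the gene positions given. No source used here names the read counter, or says whether it used strand. The deposited FPKM times gene length fell on whole multiples of a step per library, with a tolerance of 0.01 read (100% of values), and dividing by it gave reads per gene and totals. The total used for scaling was 0.969 to 1.068 times each library's own total. This factor was lowest in KO cocultures and highest in WT monocultures, and no source used here explains it. Small coculture effects can depend on it. In SG-free WT cells the members' summed FPKM in coculture was 1.024 times that in monoculture, but their share of reads was 0.962 times. Columns of other samples numbered 0, and 0 pairs of libraries were identical.

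The 12061 genes that reached an FPKM of 1 in 3 or more libraries were tested as log2(FPKM + 1) with limma 3.58.1 in R 4.3.3 (moderated, two-sided, mean-variance trend), in 1 fit of all 8 groups (16 residual degrees of freedom). P-values were Benjamini-Hochberg adjusted over the 12061 genes. Groups were compared in 12 pairs, and 5 interactions tested whether effects differed. The log2(FPKM + 1) scale understates the change of low genes. The fit was tested on simulated data with the same spread in all libraries and few changed genes. That setting is unlike these data, so it does not speak for the replicates that stood apart here. Figures used matplotlib 3.10.9. The members, the lists and the tests were chosen with earlier results of these data known. All members may be named. Values per library are given for the catalytic subunits, the largest genotype change in each class in SG-free monocultures and the assembly chaperones. Some further genes with such values were chosen after their values were seen. These are Psma5, Psmb1 and, outside the members, Pomp, Psme1, Psme2, Sel1l, Syvn1 and Nfe2l1. Other genes are up to 3 called ones per list and direction, besides Psme2, which was not called. Paaf1 was not matched and is not analysed here. Promoter sequences are RefSeq's, matched by symbol. The list of ubiquitin, E1 and shuttle genes is not reported here.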

Additional observations from a re-analysis of the deposited data

Results flagged for a closer look

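Results are given here where the effect in one setting differed from that in another by limma's test of the difference, and the interactions share libraries. In monocultures the withdrawal effect differed between KO and WT cells for 31 members. The differences were 0.51 for Psmb5, 1.58 for Psmb6, −0.25 for Psmb1, 1.56 for Psmb3, 2.12 for Psmc2, 1.16 for Psmd12, 1.14 for Psma7, 0.74 for Psmb7 and 1.21 for Psmd9. For Psmb5 the difference lost its call in 9 alternatives, among them without replicate 1 of the KO SG monocultures (0.31, adjusted p = 0.0867).

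In cocultures the withdrawal effect differed between KO and WT cells for 4 members, by 0.83 for Psmc2, 0.24 for Psmc3, −0.25 for Psmd13 and 0.23 for Psmd11.

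In KO cells the withdrawal effect differed between coculture and monoculture for 29 members. The differences were 0.38 for Psma5, −0.66 for Psmb5, −1.27 for Psmb6, 0.49 for Psmb1, −1.58 for Psmb3, −1.33 for Psmc2, −1.04 for Psmd12, −0.63 for Psma7, −0.50 for Psmb7, 0.39 for Psmd5 and −1.11 for Psmd9. With quantile normalization Psmb5 was at −0.43 (adjusted p = 0.0531) and with only the groups compared Psmd5 had an adjusted p of 0.0592, so neither was called there. In WT cells it differed for 1 member, Psma7, by 0.42, and its call was lost without any one of 5 WT libraries (adjusted p = 0.0515 to 0.0654). With serine and glycine present, the coculture effect differed between KO and WT cells for 2 members, by 0.29 for Psmd8 and −0.20 for Psmd4.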

How the results depend on the processing

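Single changes were followed under the alternatives run for 10 members: Psma7, Psmb3, Psmb5, Psmb6, Psmb7, Psmc2, Psmd5, Psmd9, Psmd10 and Psmd12. None of their called changes changed sign. Whether called changes of the other members kept their sign was not checked. Some uncalled changes of the 10, and some medians of all members near 0, did change sign. With quantile normalization the median was −0.0063 for KO against WT in SG monocultures and −0.0013 in SG cocultures. It was −0.019 for coculture in SG-free WT cells and −0.014 for genotype by coculture. Counts of members called moved by over 1.5 times as follows. Withdrawal in WT monocultures (1 as reported) gave 0 with quantile normalization, 2 with only the groups compared and 0 with the replicate block. Withdrawal in KO cocultures (9) gave 4 with only the groups compared. The coculture effect in KO cells with serine and glycine (9) gave 15 with quantile normalization and 4 with only the groups compared. That in SG-free WT cells (4) gave 9, and coculture by withdrawal in WT cells (1) gave 5, with only the groups compared. Genotype by coculture (2) gave 0 with only the groups compared and 1 with a pseudocount of 0.1, no filter, an FPKM of at least 1 in all 24 libraries, limma voom on recovered reads, the replicate block, or replicate 1 of both KO monoculture groups left out, which was chosen after seeing the data. Leaving out each library in turn gave ranges of 11 to 15 (KO against WT in SG monocultures), 29 to 30 (SG-free monocultures), 9 to 14 (SG cocultures) and 12 to 16 (SG-free cocultures). For withdrawal they were 30 to 32 (KO monocultures), 0 to 1 (WT monocultures), 6 to 14 (KO cocultures) and 0 to 0 (WT cocultures). For coculture they were 7 to 12 (KO with SG), 31 to 32 (KO SG-free), 5 to 10 (WT with SG) and 2 to 3 (WT SG-free). For the interactions they were 29 to 32 and 1 to 8 (genotype by withdrawal in monocultures and cocultures), 28 to 31 and 0 to 1 (coculture by withdrawal in KO and WT cells) and 0 to 3 (genotype by coculture).

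Quantile normalization brought the members' median nearer 0 in the comparisons with KO SG-free monocultures, to 0.60 against WT, 0.55 on withdrawal, −0.51 in coculture and 0.68 and −0.43 in the interactions, and took it further from 0 for coculture in KO cells with SG (−0.16). The cause of these moves was not tested. The labels do not say that replicate numbers pair the libraries. Every pair correlated over 0.1 in 1 of 12 comparisons, withdrawal in KO monocultures (0.401, 0.276 and 0.114), where the replicate block called 31 members as reported, and 5 of 24 libraries correlated best with their own number. Besides the counts above, the block moved no count by over 1.5 times.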
